A study of Mus musculus with 45 samples.

Results

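Core erythroid transcription factors beside the GATA factors were taken as a list of 10 genes, chosen with earlier results of these data known. These were Klf1, Nfe2, Tal1, Lyl1, Lmo2, Ldb1, Gfi1b, Bcl11a, Zbtb7a and Myb. All 10 were found by name among the 24333 genes of the deposited gene score table, and all 10 passed the filter on low values in every comparison. The table holds chromatin accessibility (ATAC) of single nuclei from sorted Ter119+ erythroblasts, Ter119 being a surface protein of maturing red cell precursors. The 6 libraries analysed, of 45 samples in the series, came from Stag2 WT mice (3 libraries) and Stag2 KO mice (3 libraries). Both genotypes had received pIpC, which starts the deletion, and were sampled 6 to 8 weeks after it was last given. The STAG2 protein belongs to cohesin, which holds chromatin in loops. The Cre driver, the age of the mice and whether a library is 1 animal or a pool are not given in the sources used here. The p-values therefore rest on the spread between libraries, which need not be that between animals. The RNA of the same nuclei was not analysed here.

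The gene score is the authors' value for ATAC signal assigned to a gene, and how it was computed is not given in the sources used here. It measures accessibility and not expression, and neighbouring genes may share signal in it. The mean over a library's nuclei is given per 1000000, the rescaled sum over all genes in that library, so scores are compared within a gene and never between genes. A change is the KO mean less the WT mean of log2(score + 1). It passed the test when the p of limma's moderated test, adjusted by Benjamini-Hochberg over all genes, was under 0.05. For each gene that test also draws on the spread of other genes.

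The libraries held 4617 to 6990 nuclei and 46782673 to 66286151 fragments each, 34073 nuclei in all. The authors' table places nuclei in classes named Early, Int and Late and in 11 numbered clusters. Int and Late were held by different clusters in the genotypes. WT Late nuclei lay in C3 (95.5%) and KO Late nuclei in C2 (97.3%), while WT Int nuclei lay mainly in C11, C6 and C9 and KO Int nuclei mainly in C10, C8 and C5. In peaks lay a median of 63.1% ± 1.38 of fragments per nucleus for WT and 58.8% ± 1.24 for KO libraries (SD, n = 3; exact two-sided permutation test p = 0.1, the smallest that 3 against 3 can give; adjusted p = 0.35 over 7 measures). Summed scores of 10 erythroid markers were 2090 to 2265 in WT and 1804 to 1957 in KO libraries. Those of 10 stem and progenitor markers were 86.0 to 111 and 129 to 157, those of 11 myeloid markers 201 to 240.1 and 239 to 266, and those of 10 lymphoid markers 84.8 to 92.1 and 99.2 to 108. No marker of these lists was at 0. Stag2 itself had scores of 64.2, 65.7 and 65.9 in WT and 61.0, 65.1 and 62.4 in KO libraries (log2 change -0.05, standard error 0.047, adjusted p = 0.348); a score over a whole gene need not show the loss of part of it. Of the nuclei, 1478 carried a barcode that occurs in more than 1 library (725 barcodes).

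These factors act together on red cell genes. TAL1 or its relative LYL1, basic helix-loop-helix proteins that bind E-boxes with an E-protein partner, join LMO2 and LDB1 in a complex that also holds GATA1; LMO2 is the bridge and LDB1 pairs with itself to bring distant sites together. KLF1 binds CACCC-type sites and activates globin and red cell membrane genes, and NFE2, with a small MAF partner, acts on the globin locus. GFI1B, BCL11A and ZBTB7A are repressors, the latter pair known for silencing fetal-type globin genes in adult cells. MYB sustains proliferating progenitors and is known to decline as red cells mature.

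The promoters of 4 factors are shown because these factors were lower in KO libraries in both the Int and the Late class and have an entry in the RefSeq table used (build GRCm38.p6, the same assembly as mm10); 8 of the 10 factors matched that table. Each sequence is the 250 bases before the transcript start, 5′ to 3′ on the gene's strand. Capitals mark matches, on either strand, to a GATA motif (AGATAA and AGATAG, or with a leading T, TGATAA and TGATAG), an E-box (CANNTG), a KLF/SP motif (CCNCNCCC) or an NFE2/AP-1 motif (TGANTCA); overlapping matches run together.
Tal1 promoter, chr4:115056176-115056425, plus strand: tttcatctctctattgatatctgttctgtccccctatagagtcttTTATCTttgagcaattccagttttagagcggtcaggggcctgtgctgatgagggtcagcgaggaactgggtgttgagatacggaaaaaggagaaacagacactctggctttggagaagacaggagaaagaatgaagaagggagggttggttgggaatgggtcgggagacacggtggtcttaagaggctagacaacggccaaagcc
Gfi1b promoter, chr2:28621983-28622232, minus strand: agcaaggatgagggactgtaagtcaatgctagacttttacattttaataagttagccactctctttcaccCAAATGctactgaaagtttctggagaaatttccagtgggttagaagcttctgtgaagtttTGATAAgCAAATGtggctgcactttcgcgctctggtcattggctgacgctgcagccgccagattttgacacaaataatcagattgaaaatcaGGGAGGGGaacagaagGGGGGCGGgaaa
Bcl11a promoter, chr11:24080445-24080694, plus strand: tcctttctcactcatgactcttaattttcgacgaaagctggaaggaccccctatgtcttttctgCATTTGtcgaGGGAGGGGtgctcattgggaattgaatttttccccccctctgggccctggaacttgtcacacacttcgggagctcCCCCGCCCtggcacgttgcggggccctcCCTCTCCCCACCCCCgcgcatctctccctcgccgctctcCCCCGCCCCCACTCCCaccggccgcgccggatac
Myb promoter, chr10:21160985-21161234, minus strand: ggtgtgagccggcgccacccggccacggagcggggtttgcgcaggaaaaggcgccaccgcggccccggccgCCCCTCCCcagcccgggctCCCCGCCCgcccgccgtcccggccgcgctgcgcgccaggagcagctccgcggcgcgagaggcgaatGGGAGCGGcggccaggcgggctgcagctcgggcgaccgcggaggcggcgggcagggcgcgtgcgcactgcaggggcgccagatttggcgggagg
The Tal1 window held 1 GATA match and none of the other motifs. The Gfi1b window held 1 GATA match, followed closely by 1 of its 2 E-boxes, and 2 KLF/SP matches. The Bcl11a window held 8 KLF/SP matches, some overlapping, and 1 E-box. Its RefSeq start lies 2639 bp downstream of the start in the gene score table, so this window lies inside the gene as scored. The RefSeq gene as a whole starts further upstream, at chr11:24076564. The Myb window held 3 KLF/SP matches only. Over all 8 windows, a GATA match occurred in 4, an E-box in 4, a KLF/SP match in 6 and an NFE2/AP-1 match in 0. Of all 32851 windows of the table, 26.5% held a GATA match, 66.2% an E-box, 45.9% a KLF/SP match and 6.75% an NFE2/AP-1 match. A match is a run of letters and not a measured binding site.

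Over all nuclei of a library, 8 of the 10 factors were lower in KO than in WT libraries and none was higher. Beside this, 14.2% of the 17682 genes tested were lower and 29.1% were higher. Of the 25% of genes with the highest mean score, to which 8 of the factors belong, 31.4% were lower. All 3 KO libraries lay below all 3 WT libraries for 8 factors, against 19.3% of all genes and 42.1% of the highest-scoring 25%. The median log2 change was -0.19 over the 10 factors, 0.10 over all genes tested and -0.07 over the highest-scoring 25%. The decreases in the fit were 8.96% for Ldb1 at the least and 21.9% for Myb at the most. A mean over all nuclei also moves with the share of each class. With the Int and the Late mean of a library given equal weight, 9 factors were lower, Lyl1 being added (-0.11, adjusted p = 0.0395), beside 2912 of 17747 genes lower. Both classes are given separately below.

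In the Int class, 5 factors were lower and none higher (7.1% of all genes tested and 17.8% of the highest-scoring 25% were lower, and 12.7% of all genes were higher); these were Tal1, Lmo2, Gfi1b, Bcl11a and Myb. Without WT replicate 1 the Int count was 3, beside 978 of 19387 genes lower. In the Late class, 9 factors were lower, that is all but Zbtb7a, beside 18.5% of all genes lower, 32.9% higher and 32.8% lower of the highest-scoring 25%. KO libraries lay below every WT library for 8 factors in Int (14.4% of all genes, 34.8% of the highest-scoring 25%) and for 7 in Late (22.7% and 40.2%). The medians over the factors were -0.17 in Int and -0.24 in Late, beside 0.06 and 0.05 over all genes. Over the highest-scoring 25% the median was -0.06 in either class. To that 25% belonged 9 of the factors in Int and 6 in Late. In nuclei matched on fragments and on the share of fragments in peaks, 8 factors were lower over 2374 nuclei per library, 7 over 1446 Int nuclei and 6 over 923 Late nuclei. Beside this, 2227 of 18109 genes were lower over all matched nuclei, 1620 of 19541 in Int and 1399 of 15594 in Late.

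**Figure D1:**
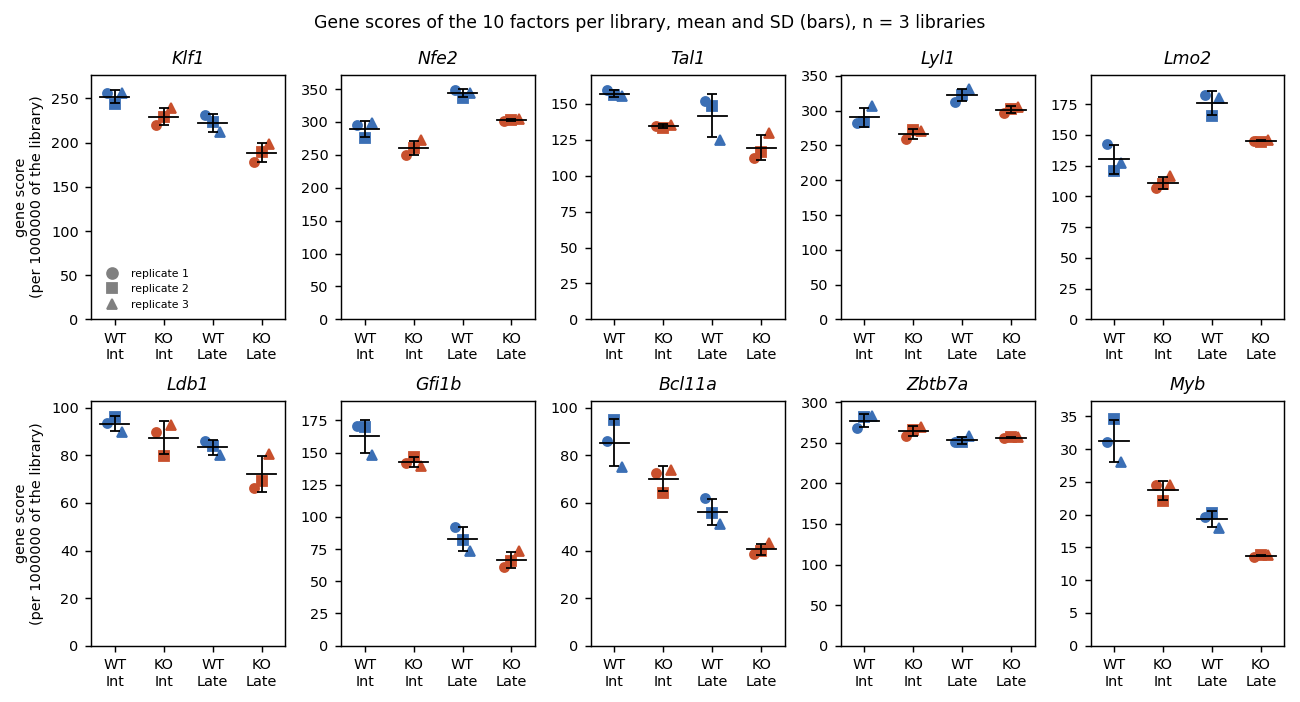
Gene score per 1000000 (vertical axes, from 0) of each factor in WT (blue) and KO (red) libraries, for Int and Late nuclei; points are libraries, bars the mean and SD of 3. Myb and Bcl11a show the widest relative gap in Late nuclei, and Zbtb7a shows WT and KO points that overlap in both classes.

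Klf1 (chr8:84901928-84905295, plus strand, mm10) encodes the erythroid Krüppel-like activator. Over all nuclei its score was 239, 229.5 and 237 in WT libraries and 196, 207 and 218 in KO libraries. Every KO library was lower than every WT library (log2 change -0.18, standard error 0.048, adjusted p = 0.00562). In Late nuclei it was 231, 223 and 212 in WT and 178, 189 and 199 in KO, again without overlap (-0.23, adjusted p = 0.00114). In Int nuclei the scores of 257, 243 and 257 and 219.9, 229 and 239 did not overlap either, but the change did not pass the test (-0.14, adjusted p = 0.0677). In the matched Late nuclei the Klf1 change was -0.18 and missed the threshold (adjusted p = 0.0587).

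Nfe2 (chr15:103248212-103258403, minus strand) encodes the erythroid basic leucine zipper subunit that pairs with a small MAF protein. Its Late score was 349, 337 and 344 in WT and 302, 303 and 304 in KO libraries. The 3 KO libraries were closely grouped and all lower (log2 change -0.18, standard error 0.034, adjusted p = 0.000741). In matched Late nuclei the Nfe2 change was -0.08 (adjusted p = 0.279), which did not pass. Over all nuclei Nfe2 was 329, 302 and 317 in WT and 266, 283 and 288 in KO, lower in every KO library (-0.18, adjusted p = 0.0105). In Int nuclei the values were 295, 275 and 298 and 250.1, 260.1 and 272, which did not overlap and missed the threshold (-0.15, adjusted p = 0.0581).

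Of the 4 members of the LDB1 complex, all were lower in Late nuclei. In that class 18.5% of all genes and 32.8% of the highest-scoring 25% were lower. Of 17 alternatives, the Late call was lost under 11 for Lyl1, 6 for Ldb1, 4 for Tal1 and 0 for Lmo2. Differences in change between the 4 members were not tested. Tal1 (chr4:115056426-115071755, plus strand), the helix-loop-helix subunit whose promoter is printed above, scored 159.8, 156 and 155 in WT Int nuclei and 135, 133 and 135 in KO Int nuclei. The spread within each genotype was small beside the gap (log2 change -0.22, standard error 0.046, adjusted p = 0.000739). In Late nuclei Tal1 was 152, 149 and 125 in WT and 113, 117 and 129.6 in KO, where WT replicate 3 lay below KO replicate 3 (-0.24, adjusted p = 0.0108). That Late call was lost under 4 of 17 alternatives, with adjusted p up to 0.0622, among them without WT replicate 2 (-0.20, adjusted p = 0.0550) and without KO replicate 1 (-0.20, adjusted p = 0.0513). Over all nuclei Tal1 was 155, 152 and 142 in WT and 125, 124 and 132 in KO, without overlap (-0.24, adjusted p = 0.000591).

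Lmo2 (chr2:103957995-103981878, plus strand), the bridging LIM-only protein, was lower in KO libraries in both classes. In Late nuclei it scored 183, 165 and 180.2 in WT and 145, 145 and 146 in KO, and the KO libraries were closely grouped below all WT libraries (log2 change -0.27, standard error 0.044, adjusted p = 0.000209). In Int nuclei it scored 143, 120.4 and 127 and 107, 109.8 and 117, without overlap (-0.22, adjusted p = 0.00434). The Int call was lost under 5 of 18 alternatives, with adjusted p up to 0.171, among them without WT replicate 1. Over all nuclei the scores were 169, 144 and 149.6 and 125, 129 and 131 (-0.26, adjusted p = 0.000949).

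Ldb1 (chr19:46032594-46045211, minus strand), the self-pairing subunit, passed the test in Late nuclei, with 85.9, 84.1 and 80.0 in WT and 66.2, 69.4 and 80.6 in KO libraries. KO replicate 3 lay within the WT range (log2 change -0.21, standard error 0.065, adjusted p = 0.0144). Over all nuclei Ldb1 was 89.2, 91.4 and 85.8 in WT and 81.8, 74.2 and 86.7 in KO, with overlap (-0.14, adjusted p = 0.0462). That call was lost under 10 of 18 alternatives; without KO replicate 2, for example, the change was -0.08 (adjusted p = 0.251). The Late call was lost under 6 of 17. In Int nuclei it was 93.6, 96.2 and 89.9 and 89.8, 79.5 and 92.8 (-0.10, adjusted p = 0.233), which did not pass.

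Lyl1 (chr8:84701457-84704716, plus strand), the relative of TAL1, had the smallest estimate of the complex in Late nuclei. Its Late score was 313, 323 and 331 in WT and 296, 303 and 305 in KO libraries. All KO libraries were lower, by 6.47% in the fit (log2 change -0.10, standard error 0.037, adjusted p = 0.0400). The call was lost under 11 of 17 alternatives, with adjusted p between 0.0166 and 0.479. Over all nuclei Lyl1 was 301, 299 and 317 in WT and 268, 288 and 288 in KO, which did not overlap and did not pass (-0.12, adjusted p = 0.0611); nor did the Int change (-0.12, adjusted p = 0.128).

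Gfi1b (chr2:28609450-28621982, minus strand) encodes a zinc finger repressor that recruits a histone demethylase complex, and its promoter is among those printed. Its score in Int nuclei was 170.3, 169.7 and 148 in WT and 142, 147 and 139 in KO libraries. WT replicate 3 lay close to the KO libraries but above all of them (log2 change -0.19, standard error 0.053, adjusted p = 0.0122). This Int call was lost under 5 of 18 alternatives, with adjusted p up to 0.200, among them without WT replicate 1. In Late nuclei it was 92.1, 82.2 and 73.4 in WT and 60.9, 66.1 and 73.2 in KO, where WT replicate 3 and KO replicate 3 nearly touched (-0.30, adjusted p = 0.00574). Over all nuclei it was 119, 125 and 116 and 107, 102 and 106 (-0.19, adjusted p = 0.00197).

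Bcl11a (chr11:24078056-24173558, plus strand), the fetal-type globin repressor, was among the 2 factors with the largest relative decrease. In Late nuclei it scored 61.9, 55.9 and 51.0 in WT and 38.5, 40.0 and 43.1 in KO libraries, a fitted decrease of 27.3% without overlap (log2 change -0.46, standard error 0.071, adjusted p = 0.000155). In Int nuclei it scored 86.2, 94.7 and 75.01 and 72.7, 64.0 and 73.7, and KO replicate 3 came close to WT replicate 3 (-0.27, adjusted p = 0.00353); that call was lost under 2 of 18 alternatives. Over all nuclei the scores were 71.7, 78.6 and 65.1 and 63.5, 51.3 and 58.5 (-0.31, adjusted p = 0.00252).

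Zbtb7a (chr10:81136271-81151657, plus strand), also known as LRF and the second repressor of fetal-type globin in the list, did not pass the test in any class. Over all nuclei it scored 256, 263 and 272 in WT and 254, 260.4 and 263 in KO libraries, with overlap. The log2 change was -0.03 with a 95% interval of -0.12 to 0.07 (adjusted p = 0.652), and its sign turned under quantile normalization (0.05) and cyclic loess (0.05). In Late nuclei Zbtb7a scored 251, 251 and 258 and 256, 257 and 257, with an interval of -0.06 to 0.09. In Int nuclei it scored 268, 282 and 283 and 258, 266 and 269.8 (-0.07, adjusted p = 0.390).

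Myb (chr10:21124930-21160984, minus strand), the progenitor factor, had the other large decrease. In Late nuclei its score was 19.6, 20.3 and 17.9 in WT and 13.6, 13.8 and 13.8 in KO libraries, lower by 27.2% in the fit (log2 change -0.46, standard error 0.082, adjusted p = 0.000466). In Int nuclei it was 31.0, 34.5 and 28.1 and 24.5, 22.0 and 24.5, without overlap (-0.38, adjusted p = 0.00489). Over all nuclei it was 24.0, 28.3 and 23.8 and 22.0, 17.6 and 19.2 (-0.36, adjusted p = 0.00877). In the same libraries the summed stem and progenitor markers were higher in KO libraries in both classes (in Int 105.3 to 140.4 in WT and 158 to 177 in KO, in Late 58.8 to 67.7 and 99.4 to 106). That sum includes Gata2, whose rise over all nuclei is given below, and values of its other markers are not given here.

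Relative to the median change of all genes, the changes over all nuclei ran from -0.45 for Myb and -0.41 for Bcl11a to -0.12 for Zbtb7a. Median centring moved both medians down, from 0.10 to -0.05 over all genes and from -0.19 to -0.33 over the factors. Both medians lay closer together with quantile normalization (-0.12 over the factors and -0.02 over all genes) and with cyclic loess (-0.12 and -0.003). The factors other than Zbtb7a had a negative change over all nuclei, in Int and in Late under every alternative tried, the scalings included. With cyclic loess, which takes out a trend of the change with the mean score, 7 factors were lower over all nuclei, 3 in Int and 6 in Late. Beside this, 2411 of 17682 genes were lower over all nuclei, 1656 of 19465 in Int and 2814 of 15886 in Late. Of all calls over all nuclei, 67.1% were higher in KO; this share was 46.9% with quantile normalization, 54.0% with cyclic loess and 35.4% with median centring.

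**Figure D2:**
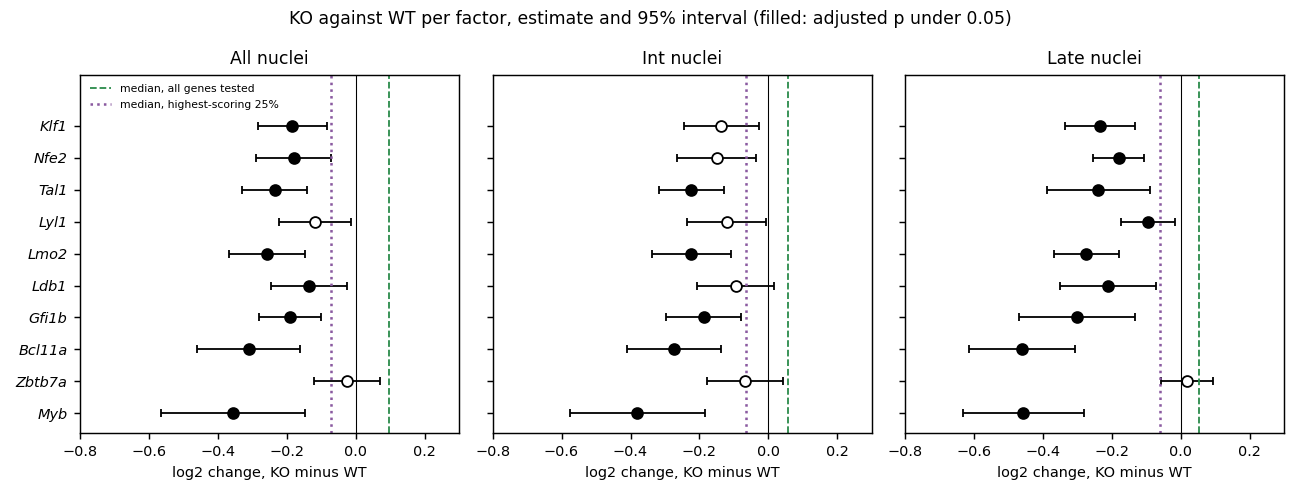
Log2 change, KO minus WT (horizontal axis), of each factor with its 95% interval, in all, Int and Late nuclei; filled points passed the test, and vertical lines give the medians of all genes tested and of the highest-scoring 25%. All factors but Zbtb7a lie left of both medians in Late nuclei.

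Whether the KO change differed between Late and Int nuclei was tested on the difference within each library. No factor passed (0 of 10; 6.41% of 15873 genes did, by limma), and at an unadjusted p under 0.05 there was 1 factor, Bcl11a. Its KO change was lower by 0.19 in Late than in Int nuclei (-0.19, 95% interval -0.34 to -0.03, adjusted p = 0.161). The difference was -0.10 for Klf1 (adjusted p = 0.272), -0.11 for Gfi1b and -0.12 for Ldb1. For Tal1 it was -0.02, with an interval of -0.15 to 0.11. So the factors that passed only in Late nuclei were not shown to respond differently there. Leaving out WT replicate 3 gave 1 call, Klf1 (-0.15, adjusted p = 0.0355), beside 2211 of 16061 genes. Leaving out WT replicate 2 also gave 1, Bcl11a (adjusted p = 0.0424), beside 768 of 15990 genes.

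The factors differed in how their score went from class to class within a library. These are descriptions with no test, since how the classes were drawn is not given in the sources used here and may rest on the same accessibility. Gfi1b was lower in Late than in Int nuclei in all 6 libraries, by -1.03 ± 0.13 on the log2 scale (mean and SD, n = 6 libraries), while the median of all genes ran from -0.12 to -0.02 by library. Myb (-0.70 ± 0.08) and Bcl11a (-0.68 ± 0.16) were also lower in Late in every library. Klf1 (-0.23 ± 0.08), Ldb1 (-0.22 ± 0.11), Tal1 (-0.16 ± 0.11) and Zbtb7a (-0.09 ± 0.06) were lower by less. Lmo2 (0.41 ± 0.07), Nfe2 (0.23 ± 0.05) and Lyl1 (0.16 ± 0.03) were higher in Late nuclei in all 6 libraries.

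Early nuclei were counted only in the 3 libraries with at least 50 of them, WT replicate 1 (102 nuclei), WT replicate 2 (235) and KO replicate 1 (310). Bcl11a was higher in Early than in Int nuclei by 1.03 to 1.19 on the log2 scale, Myb by 0.84 to 1.28 and Ldb1 by 0.47 to 0.56. Nfe2 was lower in Early by -0.94 to -0.81, Lyl1 by -0.83 to -0.53, Klf1 by -0.72 to -0.61 and Zbtb7a by -0.33 to -0.31. Klf1 and Zbtb7a thus had their highest class mean in Int nuclei, Bcl11a, Myb and Ldb1 in Early nuclei, and Nfe2 and Lyl1 in Late nuclei in these 3 libraries. Tal1, Lmo2 and Gfi1b were higher in Early than in Int by at most 0.08, 0.20 and 0.20.

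**Figure D3:**
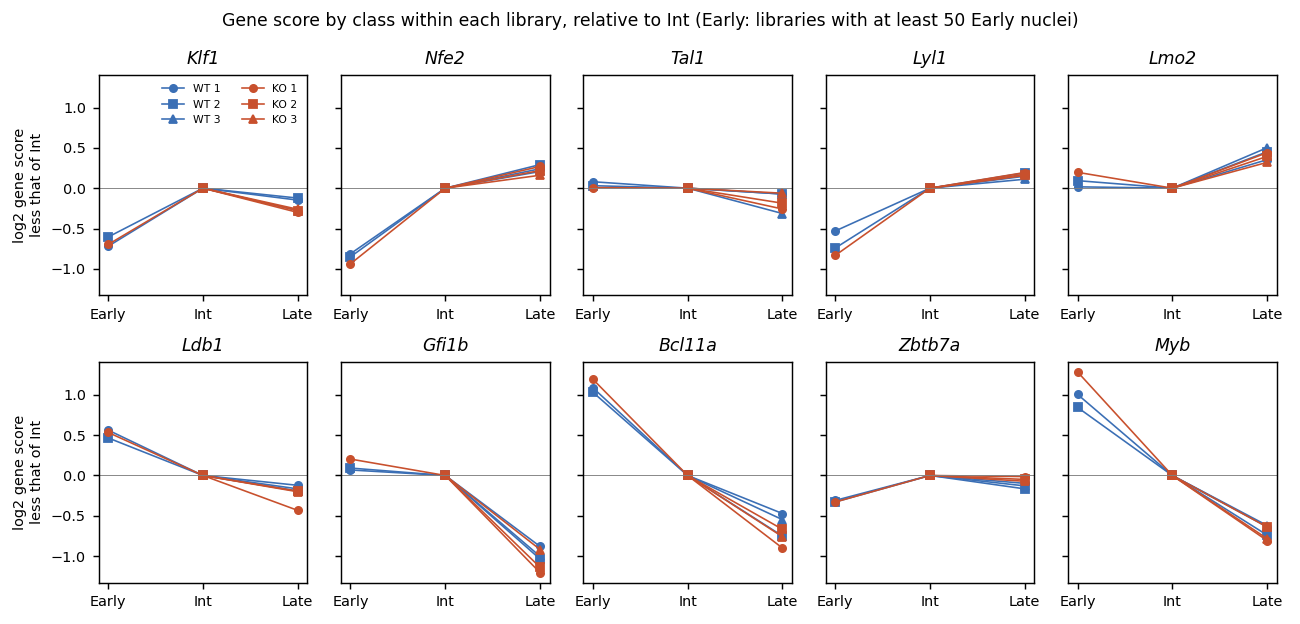
Log2 gene score of each factor by class (horizontal axis) less that of the Int class in the same library (vertical axis); a line is a library, blue WT and red KO, and Early is drawn for 3 libraries. Gfi1b, Bcl11a and Myb fall steeply from Int to Late in every line, and Lmo2, Nfe2 and Lyl1 go up.

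By cluster, the order of levels was again set within each gene and has no test. C8 held 2020 KO and 12 WT nuclei, and C9 held 1835 WT and 18 KO nuclei. In C8 of KO and C9 of WT, Bcl11a scored 95.7 ± 4.99 and 138 ± 4.74 (SD, n = 3 libraries), while Klf1 scored 221 ± 9.06 and 222 ± 7.69, within their spread. Of the 10 factors, 9 had the lower mean in C8 of KO (41.4% of all genes), and for 4 every KO library lay below every WT library (14.5% of all genes). Nfe2 went the other way (251 ± 10.4 and 246 ± 14.9), within its spread. In C10 (KO) and C11 (WT), every KO library lay below every WT library for all 10 factors (17.2% of all genes; the mean was lower in KO for 53.8%). There Tal1 scored 130.1 ± 3.22 and 163 ± 5.07, Gfi1b 129 ± 5.34 and 163 ± 6.90, and Myb 22.8 ± 1.29 and 33.6 ± 3.87, while Zbtb7a scored 247 ± 2.81 and 264 ± 1.85 and Ldb1 85.1 ± 5.24 and 94.3 ± 0.943. Genotype and cluster cannot be told apart in these pairs.

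Only C5 held over 100 nuclei of every library (143 to 261 in WT, 528 to 598 in KO). Within C5 no factor passed the test (0 of 10; 0.89% of 19438 genes did, by limma), while 6 had an unadjusted p under 0.05 (13.4% of genes). The estimates were negative for all 10, and KO lay below every WT library for 5 of them (7.89% of genes). Gfi1b scored 180.4, 197 and 171 in WT and 133, 145 and 119 in KO nuclei of C5 (-0.46, adjusted p = 0.0785). Bcl11a scored 90.3, 91.5 and 89.5 and 59.8, 55.6 and 75.6 (-0.51, adjusted p = 0.130). Myb scored 35.9, 30.8 and 21.3 and 18.7, 15.4 and 18.7 (-0.68), and Lmo2 178, 116 and 174 and 92.0, 104.9 and 121 (-0.54), both with a wide WT spread. Leaving out WT replicate 2 gave 1 call in C5, Lmo2, beside 120 of 19466 genes.

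In C7, which held nearly all Early nuclei, only 2 libraries a genotype had at least 20 nuclei. These were WT replicates 1 and 2 (103 and 242 nuclei) and KO replicates 1 and 2 (326 and 26). All 10 estimates were negative in C7 and none passed (4 at an unadjusted p under 0.05; 9.03% of genes at that level and 0% adjusted). For fits within a cluster, the share of negative estimates over all genes is not given here. Nfe2 scored 164 and 152 in WT and 132 and 125 in KO libraries of C7 (-0.29, adjusted p = 0.505). Leaving out KO replicate 1 leaves 1 KO library in C7, so that fit is not read. In C1, C2 and C4 no factor passed (2, 2 and 1 at an unadjusted p under 0.05, beside 6.71%, 12.6% and 4.39% of genes). In C3 only Bcl11a did (-2.67, adjusted p = 0.0351), beside 2.9% of genes adjusted and 22.9% unadjusted. On the KO side that call rests on replicates 2 and 3, with 21 and 37 nuclei. No factor passed in C3 with the replicate block or with any WT library left out. The estimates were negative for 6 factors in C1, 3 in C2, 7 in C3 and 5 in C4. Both unadjusted hits in C2 were higher in KO, Ldb1 (0.85, adjusted p = 0.211) and Tal1 (0.61, adjusted p = 0.388). Each of these 4 clusters rests on at most 68 nuclei a library in at least 1 genotype, so the sizes are not read.

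**Figure D4:**
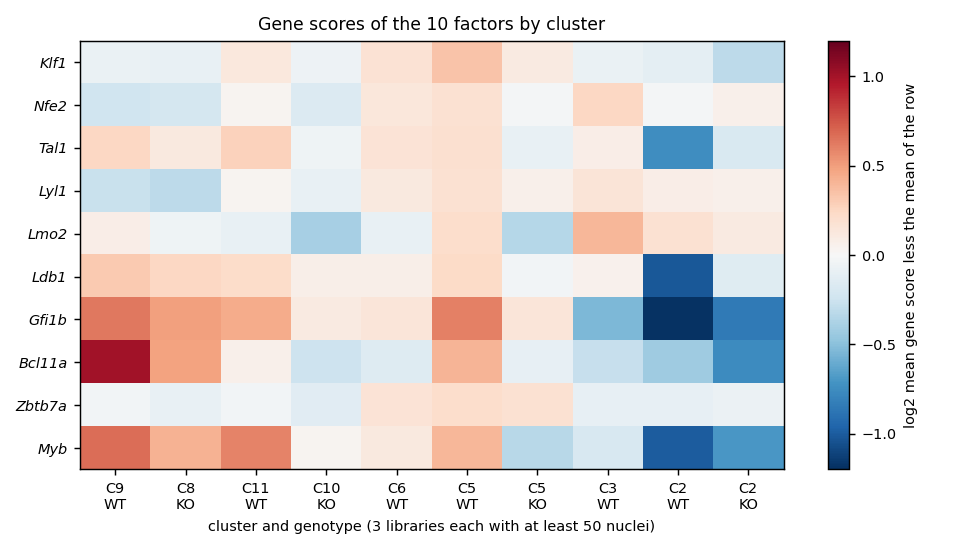
Log2 mean gene score of each factor (rows) less its row mean, by cluster and genotype (columns) where 3 libraries had at least 50 nuclei; red is higher and blue lower. Bcl11a is highest in C9 of WT, and the C2 column of WT, with 58 to 68 nuclei a library, has the lowest Gfi1b, Ldb1 and Tal1.

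Since neighbouring genes may share signal, the genes that start within 100 kb of each factor were read from the same all-nuclei fit, in which 14.2% of all genes were lower and 29.1% higher; the counts are small and were not tested against these shares. Klf1 had 16 tested neighbours, of which 6 were lower and 1 higher; Syce2, which encodes a protein of the meiotic synaptonemal complex, fell by 0.64 (adjusted p = 4.1e-07), more than Klf1 itself. Klf1 and Lyl1 start 200471 bp apart, outside each other's window. Of 5 Tal1 neighbours, 4 were lower and 1 higher, and Pdzk1ip1 fell by 0.46 (adjusted p = 2.4e-05). Both Lmo2 neighbours were lower, with Lincred1 at -0.29 (adjusted p = 0.000238). For Nfe2, 2 of 8 were lower and 2 higher, and Mir148b had a change of -0.36 (adjusted p = 8.4e-05).

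Around Zbtb7a, 7 of 12 tested neighbours were higher and none lower (29.1% and 14.2% of all genes), with Pias4, a SUMO ligase gene, at 0.33 (adjusted p = 0.00851). Gfi1b had 5 neighbours, 2 of them lower; none had a change below that of Gfi1b, and its largest, Spaca9, was at 0.26 (adjusted p = 0.119). Of 5 Ldb1 neighbours 1 was lower and 1 higher, the latter Elovl3, a fatty acid elongase gene, at 0.55 (adjusted p = 0.000974). Of 4 Lyl1 neighbours 3 were lower, with Trmt1 at -0.16 (adjusted p = 0.00529). Bcl11a had no gene within that distance, and Myb had 1, Gm33619, at -0.18 (adjusted p = 0.00475).

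**Figure D5:**
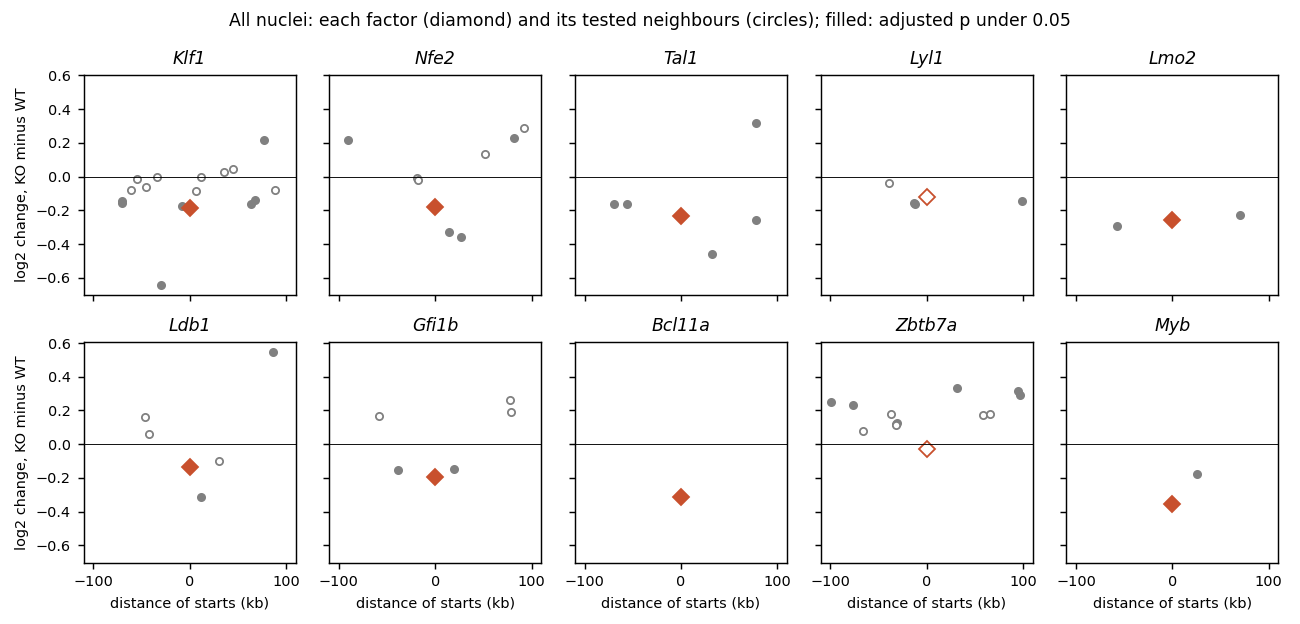
Log2 change over all nuclei (vertical axis) of each factor (red diamond, at 0) and of the tested genes around it, by the distance between starts in kb (horizontal axis, along the chromosome); filled symbols passed the test. Neighbours of Zbtb7a lie above 0 and both neighbours of Lmo2 lie below 0.

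Other genes of each pathway were counted, over all nuclei, from lists chosen with earlier results of these data known. Of 31 tested genes known as KLF1 targets, 19 were lower and 1 higher, with a median of -0.15 beside 0.10 for all genes. Of all genes 14.2% were lower and 29.1% higher, and of the highest-scoring 25% of genes 31.4% were lower. In Late nuclei 22 of 30 were lower and 0 higher, beside 18.5% of all genes and 32.8% of the highest-scoring 25% lower. In Int nuclei 12 of 32 were lower and 0 higher, beside 7.1% and 17.8% lower. Several of these genes are also erythroid markers, whose summed score was lower in KO libraries; the part of cell composition in this count was not tested. Aqp1, a water channel of the red cell membrane, fell from 200.4 ± 11.3 to 149 ± 5.39 (SD, n = 3; -0.43, adjusted p = 2.6e-06). Klf3, a repressor of the KLF family, fell from 229.7 ± 15.0 to 179 ± 0.675 (-0.36, adjusted p = 2.0e-05). Klf8, another KLF repressor, was the 1 gene that rose, from 6.71 ± 0.893 to 9.15 ± 1.30 (0.40, adjusted p = 0.0180).

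Of 18 tested partners of the LDB1 complex, 1 was lower and 5 were higher, with a median of 0.04. Over all genes 14.2% were lower and 29.1% higher, so the share of higher partners was near that of all genes. Gata2, the GATA factor of stem and progenitor cells, rose from 17.9 ± 3.15 to 42.0 ± 5.47 (1.19, adjusted p = 2.3e-07). It also belongs to the stem and progenitor markers summed above, so their higher sum in KO libraries includes this rise. Values of the other markers are not given here, and the part of cell composition was not tested. Ssbp4, of the single-stranded DNA-binding proteins that steady LDB1, rose from 65.3 ± 4.94 to 82.1 ± 5.37 (0.33, adjusted p = 0.000299). Lmo4, a relative of LMO2, rose from 6.01 ± 1.11 to 8.37 ± 1.09 (0.42, adjusted p = 0.0150), close to the filter at 5.

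Of 30 corepressors and relatives of GFI1B, BCL11A and ZBTB7A, 9 were lower and 4 higher (median -0.04). The shares over all genes, here and for the lists that follow, were 14.2% lower and 29.1% higher. Among the 9 lower, whose changes ran from -0.27 to -0.12, were Mta3, a subunit gene of the NuRD complex (-0.27, adjusted p = 0.000149), and Zbtb7b, a relative of Zbtb7a (-0.24, adjusted p = 0.000443), both chosen after their values were seen. Of the higher genes, Zbtb7c rose to 17.1 ± 0.223 from 13.2 ± 1.68 (0.36, adjusted p = 0.0149), and Bcl11b, the relative of Bcl11a known from T cells, to 7.12 ± 0.105 from 5.62 ± 0.785 (0.30, adjusted p = 0.0414), a direction that turned in matched nuclei (-0.14). Among 10 NFE2 partners and relatives 2 were lower and 1 higher (median 0.02): Nfe2l2 at -0.16 (adjusted p = 0.00487), its inhibitor Keap1 at -0.11 (adjusted p = 0.0295) and the small MAF gene Maff at 0.34 (adjusted p = 0.0241). Among 12 MYB partners and relatives 2 were lower and 0 higher (median -0.08), the MYB family genes Mybl1 at -0.22 (adjusted p = 0.00689) and Mybl2 at -0.17 (adjusted p = 0.0236). Of the genes named from the lists, the call was lost under 11 alternatives for Bcl11b, 10 for Keap1, 7 for Lmo4, 6 for Klf8 and Mybl2, 5 for Maff, 4 for Zbtb7c and 2 for Nfe2l2.

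Genes starting over 1 Mb away were ranked by the likeness of their pattern, as Pearson's r of log2 scores over 15 means of class and library and over 33 means of cluster and library; these points share libraries, depth and the drawing of classes, and r is a description. Over classes the closest gene to Bcl11a was Myb, and the reverse (r = 0.995). Nfe2 was closest to the beta-globin gene Hbb-bs (r = 0.996), whose score is uncertain because a near-identical copy lies next to it. Gfi1b was closest to Clspn (r = 0.994), Lyl1 to Fam72a (r = 0.993), Ldb1 to Lage3 (r = 0.991) and Klf1 to Gypc (r = 0.991), a membrane glycoprotein gene. Zbtb7a was closest to Shf (r = 0.979), Lmo2 to Cpeb3 (r = 0.969) and Tal1 to Nfix (r = 0.948). Over clusters the closest were Nup210 for Gfi1b (r = 0.976), Prdx2 for Nfe2 (r = 0.966), Cdk17 for Myb (r = 0.955), Apbb1ip for Bcl11a (r = 0.955), Pabpc1l for Ldb1 (r = 0.951) and Fam210b for Lyl1 (r = 0.9498). Mllt11 was closest to Tal1 (r = 0.945), Fbxo5 to Klf1 (r = 0.910), Usp22 to Zbtb7a (r = 0.863) and Frem3 to Lmo2 (r = 0.831). Among the 45 pairs of factors r was positive in 19 over classes and in 22 over clusters, so the 10 factors did not share 1 pattern.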

How the data were processed

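ATAC libraries from 10x multiome preparations of Ter119+ erythroblasts, 3 Stag2 WT and 3 Stag2 KO, were analysed. The submitters' processing notes name Cell Ranger and mm10; how gene scores, classes and clusters were made is not given in the sources used here. The authors deposited gene scores as a signal scaled so that each nucleus sums to about 10000 (9999.855 to 10000.12 in the file), fragment counts per nucleus, doublet and TSS enrichment scores, and a nucleosome ratio. The deposited table of nuclei listed each of 34073 nuclei 2 times with equal values, and 1 listing was used. Every nucleus of the table was kept, and doublet scores entered an alternative.

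Scores were averaged per library, class or cluster and rescaled to 1000000. Genes with a mean of at least 5 were fitted as log2(score + 1) with limma 3.58.1 in R 4.3.3 (lmFit, eBayes with trend, two-sided), KO against WT, with Benjamini-Hochberg adjustment over all genes and a threshold of 0.05. Classes needed 50 nuclei a library and clusters 20. Quality measures used an exact permutation test (scipy 1.17.1). Simulated data, a single draw for each comparison, had 200 genes changed. There, changes of 0.5 (log2) were recovered in 100%, 83.6% and 95.5% of genes over all, Int and Late nuclei, and changes of 0.25 in 46.3%, 49.3% and 62.7%. Of the calls made there, 6.82%, 2.52% and 2.82% were false, the first above the nominal 5% in that draw. Far more genes passed in the data (7661 of 17682 over all nuclei). The cut-off of the simulation was therefore stricter, and its shares are not those of the data.

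The factors and gene lists were chosen with earlier results of these data known. Named genes were all 10 factors, the neighbour within 100 kb with the largest change, the genes with the most alike pattern, up to 3 genes past the threshold per list whose groups do not overlap, and Stag2. All of these are given but 1 list gene, which is not reported here. Depth was 46782673 to 66286151 fragments a library. Alternatives covered the pseudocount, filter, scaling, variance trend, replicate block, doublet scores, matched nuclei, equal weight of Int and Late, and each library left out.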

Additional observations from a re-analysis of the deposited data

Results flagged for a closer look

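For 2 genes named from the pathway lists, the KO change differed between Late and Int nuclei by limma's test of the difference within libraries. Beside this, 6.41% of 15873 genes passed the same test. The genes named from the lists had been chosen by their change over all nuclei. Aqp1, the red cell water channel gene and a KLF1 target, changed by -0.32 in Int and by -0.67 in Late nuclei. The change was -0.356 in Late less Int nuclei (standard error 0.072, adjusted p = 0.00489, limma). That call was lost under 2 of 17 alternatives, with no variance trend (adjusted p = 0.175) and in matched nuclei (-0.24, adjusted p = 0.253). Zbtb7c, a relative of Zbtb7a, changed by 0.16 in Int nuclei, which did not pass the test, and by 0.65 in Late nuclei, where its score was low (6.18 ± 0.278 in WT and 10.3 ± 1.22 in KO, SD, n = 3). The difference was 0.4974 (standard error 0.143, adjusted p = 0.0401, limma), and the call was lost under 11 of 16 alternatives. In matched nuclei the Zbtb7c difference was 0.14 (adjusted p = 0.790).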

How the results depend on the processing

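The number of factors past the threshold was 7 to 9 over all nuclei, 0 to 7 in Int and 6 to 9 in Late under every alternative. In Int it was 3 with cyclic loess, 2 with no variance trend and 0 in cluster C5 alone. Over all nuclei 4244 of 10362 genes tested passed with a filter at 20 and 5006 of 18109 in matched nuclei, beside 7661 of 17682. In Int 1921 of 19465 passed with no variance trend and 171 of 19454 in C5 alone, beside 3858 of 19465. In Late 4560 of 9890 passed with the filter at 20, 2988 of 15594 in matched nuclei and 5019 of 15884 in as many nuclei at random, beside 8161 of 15886. For the difference between Late and Int, 468 of 9711 passed with the filter at 20 and 206 of 15873 with no variance trend. It was 194 of 15573 in matched nuclei and 249 of 15863 in random nuclei, beside 1017 of 15873. Random draws of nuclei were added after seeing the data. The filter at 20 left fewer genes to test, and the cause of the shifts was not tested.

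Leaving out each library in turn gave 7 to 8 factors and 5355 to 8440 genes over all nuclei, 3 to 7 factors and 2547 to 4782 genes in Int, 6 to 9 factors and 6616 to 7892 genes in Late (8083 genes without nuclei of high doublet score), and 0 to 1 factors and 309 to 2211 genes for the difference. Within C2 it gave 0 to 1 factors and 0 to 1161 genes, within C3 0 to 10 and 0 to 12666, within C5 0 to 1 and 8 to 329, and within C7 0 to 6 and 0 to 4901, the C7 maximum without KO replicate 1. Within C1 and C4 both were 0. A library left alone in its genotype is assumed to vary like the others.

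Same-numbered libraries did not all deviate together (correlations of -0.12, -0.27 and 0.21 over all nuclei, 0.13, -0.084 and 0.19 in Int, and 0.087, 0.045 and 0.051 in Late, not all over 0.1 in any), so the numbers were not taken to pair them. With the replicate block 8 factors passed over all nuclei, 6 in Int and 8 in Late (7470, 4527 and 7982 genes), and in C3 0 factors and 0 genes passed.

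Directions turned for the following. Zbtb7a had 0.050 with quantile normalization, 0.048 with cyclic loess and 0.0099 in matched nuclei over all nuclei, 0.00036 and 0.013 with quantile normalization and loess in Int, -0.047 with median centring in Late, and -0.11 to 0.027 in C5 with a library left out. Bcl11b, which rose by 0.30 over all nuclei, had -0.14 in matched nuclei, and Lyl1 -0.24 to 0.019 in C5 with a library left out (above 0 without WT replicate 2). For the difference, Lyl1 had -0.031 with quantile normalization and -0.0026 with loess; Tal1 had -0.097 to 0.029 with a library left out and 0.016 in matched nuclei; Lmo2 had 0.00018, Nfe2 0.045 and Gfi1b 0.016 in matched nuclei, and Nfe2 0.0068 in random nuclei.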
